A study of Mus musculus with 15 samples.

Results

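Gpnmb and 9 macrophage markers (Cd68, Csf1r, Aif1, Trem2, Mrc1, C1qa, C1qb, Cd163 and Lyve1) were followed across tumours of the mouse choroid plexus, the tissue of the brain ventricles that secretes cerebrospinal fluid. These are 10 of the 22180 genes tested. All 10 had a probe set paired with exactly 1 gene symbol, and each had 1 such probe set. Gpnmb was selected on its own rise in these tumours, so its values are given as a description with no test. The other members were listed as macrophage markers.

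Total RNA from 5 choroid plexus carcinomas, 5 choroid plexus papillomas and 5 normal choroid plexuses was measured on Affymetrix GeneChip arrays, 1 array per sample, and the series text states that the samples came from different mice. Carcinomas came from Atoh1-Cre; Myc/Myc; p53fl/fl mice, papillomas from Atoh1-Cre; Myc/Myc mice, and normal tissue from Myc/Myc; p53fl/fl mice. All mice were on a C57Bl/6 and 129 mix and carried the Myc alleles. Normal tissue carried no Cre, so the effect of Cre itself cannot be told apart from that of the tumour. Cre was driven by Atoh1 regulatory sequence, ages were not given, and tumours were taken when mice showed signs of disease. Values are log2 expression after robust multi-array averaging (RMA), in which a difference of 1 is a 2-fold difference in signal, and arrays of a group are numbered as in the sample titles.

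Gpnmb encodes a type I membrane glycoprotein of melanosomes and endosomal vesicles. It is made by melanocytes, by lipid-laden and tumour-associated macrophages and by several tumour types, and MiT/TFE transcription factors drive it in mouse and human cells. Macrophages of the choroid plexus stroma and of its ventricular surface depend on signalling through the receptor that Csf1r encodes. In these bulk samples, fewer macrophages and less RNA per macrophage cannot be told apart.

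The promoters below belong to the members that carried the contrast in the data: Gpnmb and Cd68, the members with the highest tumour values relative to normal tissue, and Trem2, a marker whose groups overlapped. Each line gives 270 bases, from 250 before to 20 after the annotated start, 5′ to 3′ along the gene's strand, from RefSeq on build GRCm38.p6. They lie at chr6:49036268-49036537 on the plus strand for Gpnmb, chr11:69666151-69666420 on the minus strand for Cd68 and chr17:48346151-48346420 on the plus strand for Trem2. Capitals mark matches to an AP-1 motif (TGACTCA on either strand) in Gpnmb and Cd68 and to a PU.1-type motif (GAGGAAG on either strand) in Trem2.
Gpnmb: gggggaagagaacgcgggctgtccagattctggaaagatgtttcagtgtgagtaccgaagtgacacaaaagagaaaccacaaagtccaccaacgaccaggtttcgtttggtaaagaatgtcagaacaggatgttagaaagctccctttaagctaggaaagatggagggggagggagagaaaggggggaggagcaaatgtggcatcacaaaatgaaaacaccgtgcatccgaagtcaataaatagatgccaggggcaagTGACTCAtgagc
Cd68: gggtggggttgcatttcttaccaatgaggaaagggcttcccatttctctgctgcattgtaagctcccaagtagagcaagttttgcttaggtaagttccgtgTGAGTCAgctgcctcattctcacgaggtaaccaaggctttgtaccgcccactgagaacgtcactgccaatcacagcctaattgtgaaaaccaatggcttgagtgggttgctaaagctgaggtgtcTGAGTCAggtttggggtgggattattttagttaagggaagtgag
Trem2: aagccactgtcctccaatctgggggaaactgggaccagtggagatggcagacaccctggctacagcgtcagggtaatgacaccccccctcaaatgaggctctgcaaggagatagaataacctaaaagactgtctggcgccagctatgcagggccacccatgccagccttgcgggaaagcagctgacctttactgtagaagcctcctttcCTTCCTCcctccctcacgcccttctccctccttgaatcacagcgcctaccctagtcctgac

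In Gpnmb the AP-1 match started at position 9 after the start, and in Cd68 matches started at -149 and -24. Of the 10 members, 7 matched an entry of the promoter table (none was found for Csf1r, C1qa or Lyve1). The AP-1 letters occurred in 2 of these 7, against 4.77% of the 32851 RefSeq promoters of the same length. The PU.1-type letters occurred in 2 of 7, Trem2 (at -41) and Mrc1 (at -168 and -36), against 11.6% of promoters. PU.1 is the myeloid transcription factor encoded by Spi1. CACGTG, an E-box that MiT/TFE factors bind, occurred in 0 of 7, against 6.57% of promoters. No other letters were searched for these factors. No match overlapped another, and the motifs were chosen with earlier results known.

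The tissue markers fitted the labels for the epithelium. Transthyretin (Ttr), the main secreted protein of choroid plexus epithelium, was at 14.42 to 14.51 in carcinomas, 14.42 to 14.49 in papillomas and 14.55 to 14.58 in normal tissue. Growth hormone (Gh), a pituitary transcript, was at 6.52 to 7.17 in carcinomas and 6.76 to 8.17 in papillomas, against 9.66 to 10.36 in normal tissue. Each tumour array had either Xist or Y-linked transcripts, while normal arrays 2 to 5 had both, and the labels do not say whether tissue was pooled. The median SD over all genes was 0.19 in carcinomas, 0.15 in papillomas and 0.12 in normal tissue.

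Gpnmb was far higher in every tumour than in any normal sample. It measured 13.41, 13.50, 12.45, 11.49 and 13.61 in carcinomas 1 to 5, 12.17, 11.17, 11.90, 11.55 and 10.83 in papillomas 1 to 5, and 7.96, 8.37, 8.51, 7.96 and 8.19 in normal arrays 1 to 5. The lowest tumour, papilloma 5, stood above the highest normal array, and carcinoma 4 lay inside the range of the papillomas. The group means were 12.89 ± 0.91 in carcinoma, 11.52 ± 0.54 in papilloma and 8.20 ± 0.25 in normal tissue (SD, n = 5 each). Carcinoma exceeded normal tissue by 4.70 (25.9-fold), papilloma exceeded normal tissue by 3.33 (10.02-fold) and carcinoma exceeded papilloma by 1.37 (2.59-fold). The order of the groups was therefore carcinoma, papilloma, normal, with overlap between the tumour types only. Both tumour types were set against the same 5 normal arrays, here and for every gene below.

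**Figure D1:**
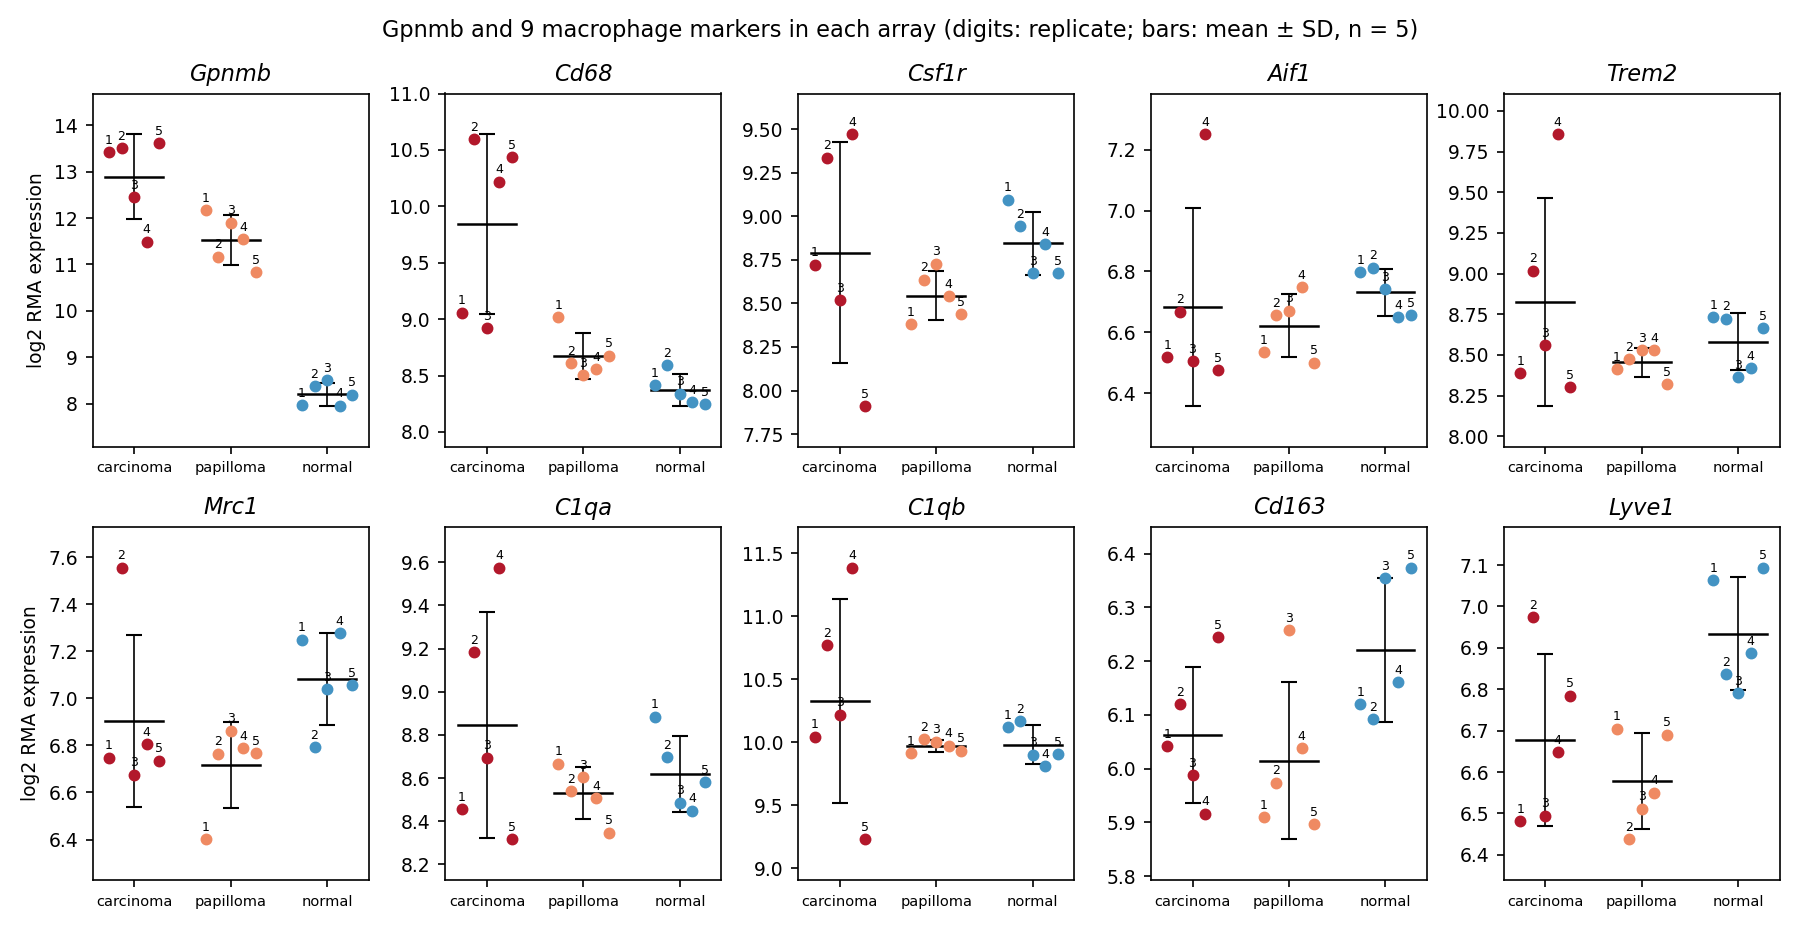
Log2 RMA expression of Gpnmb and the 9 macrophage markers in each array, with carcinoma, papilloma and normal on each horizontal axis. Points are arrays numbered by replicate, horizontal lines are group means and bars are ± SD (n = 5), and each panel has its own vertical range. Gpnmb separates all 10 tumours from normal tissue, and the carcinomas spread more widely than the other groups for Cd68, Csf1r, Trem2, C1qa and C1qb.

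The 9 macrophage markers did not share the size of the Gpnmb difference. In carcinoma against normal tissue 1 of 9 passed the threshold (limma, adjusted p under 0.05), Cd68, which was higher. Over all genes 37.9% passed (18.7% higher and 19.2% lower), so the share of the markers, 11.1%, was below that background. The median difference of the 9 was -0.05, beside -0.02 over all genes. In papilloma against normal tissue 1 of 9 passed, Lyve1, which was lower, beside 33.2% of all genes (17% higher and 16.3% lower), and the median was -0.13, beside 0.01. In carcinoma against papilloma 1 of 9 passed, Cd68, which was higher, beside 11.4% of all genes (6.24% higher and 5.17% lower). The median was 0.25, beside -0.03. All 9 differences were above 0, as were 9793 of the 22180 genes. The first count was 3 without carcinoma 2 or carcinoma 5, and 2 without carcinoma 4 or normal array 3. The second was 2 without carcinoma 2 or papilloma 3. Leaving out 1 array gave 7703 to 8745 of all genes in the first comparison and 6703 to 7829 in the second. In a fit on only the groups compared the second count was 4 of 9, beside 8578 of the 22180 genes. There the share of the markers was not below that of all genes. The same setting left 0 in the third, beside 1329 of all genes.

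Counting only whether the arrays of the groups overlapped gave the same 1 marker in each comparison with normal tissue. Carcinoma and normal arrays did not overlap for Cd68, as for 29.9% of all genes (14.6% higher and 15.2% lower). Papilloma and normal arrays did not overlap for Lyve1, as for 32.1% of all genes (16.3% higher and 15.8% lower). Carcinoma and papilloma arrays overlapped for all 9 markers, while 7.9% of all genes did not overlap (4.52% higher and 3.39% lower).

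**Figure D2:**
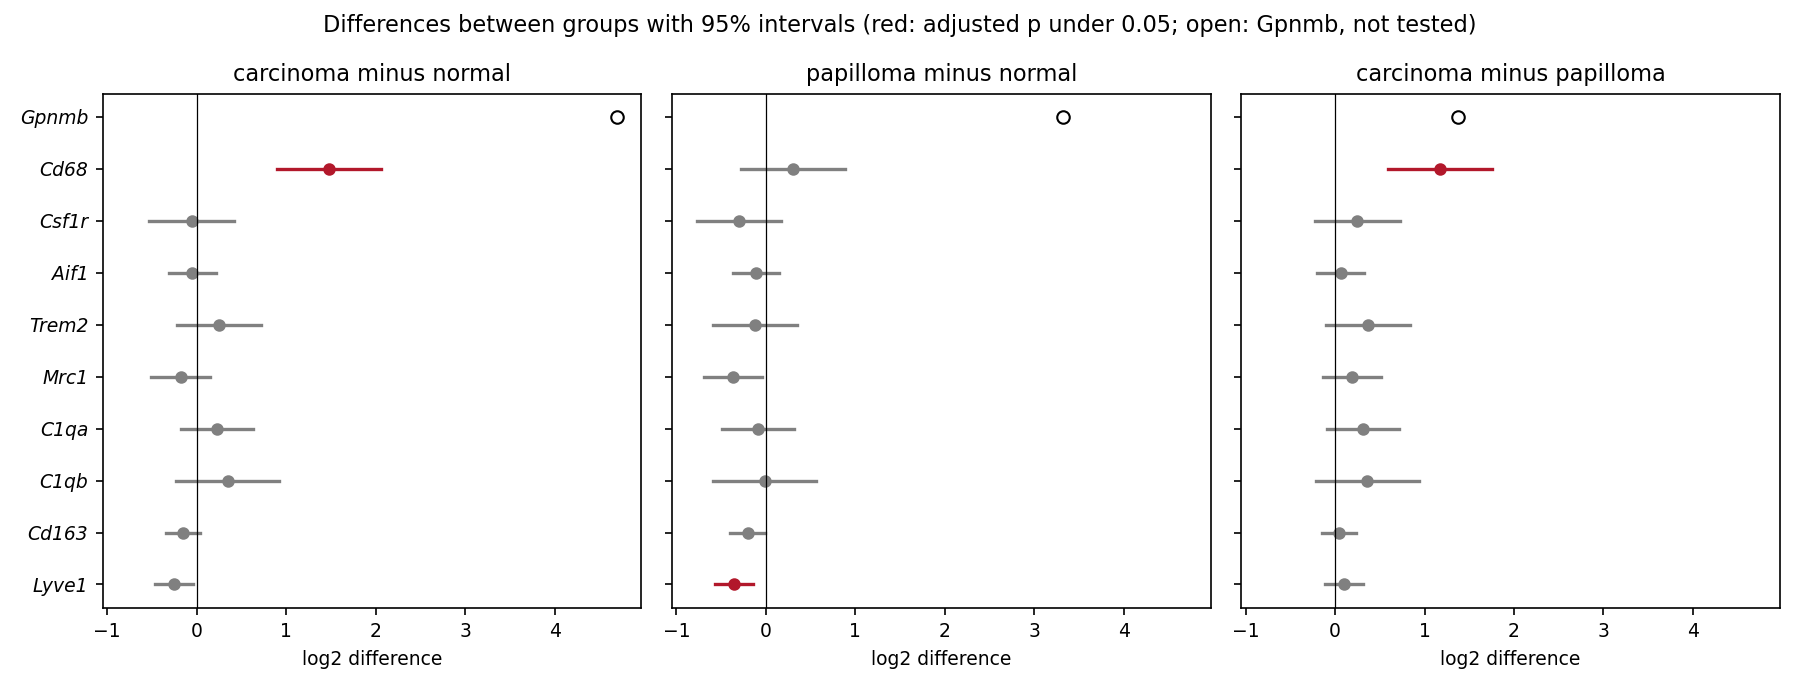
Log2 differences between groups for Gpnmb and the 9 macrophage markers, with 1 panel for each of the comparisons. Points are differences of group means, horizontal lines are 95% intervals from the limma fit, and red marks an adjusted p under 0.05. The open symbol is Gpnmb, which was not tested. Cd68 is red in both panels that contain carcinoma, and Lyve1 is red on the low side in papilloma minus normal.

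Cd68, a lysosomal membrane glycoprotein abundant in macrophages, rose in carcinoma. It measured 9.06, 10.59, 8.92, 10.22 and 10.43 in the carcinomas, 9.02, 8.61, 8.50, 8.56 and 8.68 in the papillomas, and 8.41, 8.59, 8.34, 8.26 and 8.25 in normal tissue. Carcinomas 2, 4 and 5 stood above 10, while carcinoma 3 was below papilloma 1. The difference was 1.47 in carcinoma against normal tissue (SE 0.27, 95% interval 0.89 to 2.05, 2.78-fold, limma adjusted p = 0.000397). Carcinoma exceeded papilloma by 1.17 (SE 0.27, 95% interval 0.59 to 1.75, 2.25-fold, adjusted p = 0.0109). Papilloma differed from normal tissue by 0.30 (95% interval -0.28 to 0.88, adjusted p = 0.465). The call against papilloma was lost in a fit on only the groups compared (adjusted p = 0.0539, over a range of 0.00146 to 0.0539 in 25 alternatives), and the same setting brought the papilloma difference past the threshold (adjusted p = 0.0378, range 0.0378 to 0.655).

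Csf1r, the receptor for the growth factors CSF1 and IL-34, did not pass the threshold in any comparison. Its values were 8.72, 9.34, 8.52, 9.47 and 7.91 in the carcinomas, 8.38, 8.64, 8.73, 8.54 and 8.44 in the papillomas, and 9.10, 8.94, 8.68, 8.84 and 8.67 in normal tissue. Carcinomas 2 and 4 were above every other array, and carcinoma 5 was below every other array. Carcinoma differed from normal tissue by -0.05 (95% interval -0.53 to 0.42, limma adjusted p = 0.887), an interval that leaves out a 2-fold difference. Papilloma differed from normal tissue by -0.30 (95% interval -0.78 to 0.17, adjusted p = 0.357), and this was called lower when only those groups were fitted (adjusted p = 0.0300, range 0.0300 to 0.533 over 25 alternatives). Carcinoma minus papilloma was 0.25 (adjusted p = 0.550).

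The ligands of the receptor and the myeloid transcription factors had 9 of 10 listed genes measured. In carcinoma against normal tissue 0 rose and 3 fell (33.3%, beside 37.9% of all genes), with a median of -0.08 (all genes -0.02). In papilloma 1 rose and 4 fell (55.6%, beside 33.2% of all genes), with a median of -0.17 (all genes 0.01). Irf8, a transcription factor of microglia and dendritic cells, fell by 0.55 in carcinoma (adjusted p = 0.000102) and by 0.86 in papilloma (adjusted p = 1.33e-06). Maf, a transcription factor of tissue macrophages, fell by 0.59 in carcinoma (adjusted p = 0.000183). Cebpa, which acts in myeloid differentiation, fell by 0.56 in papilloma (adjusted p = 0.00581), while Csf2ra, a chain of the GM-CSF receptor, was higher there by 0.41 (adjusted p = 0.0137).

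Il34, which encodes the second ligand of the receptor, fell by 0.45 in papilloma (adjusted p = 0.00166). In carcinoma it fell by 0.26 (adjusted p = 0.0444), a call that 15 of 25 alternatives lost (adjusted p up to 0.343). Csf1, named for its role as the first ligand, measured 8.15, 8.35, 8.26, 9.39 and 8.72 in the carcinomas, 7.99, 8.13, 8.10, 8.002 and 8.10 in the papillomas, and 8.19, 8.14, 8.22, 8.14 and 8.12 in normal tissue. Every carcinoma was above every papilloma, and carcinoma 4 was the highest. The difference was 0.41 in carcinoma against normal tissue (adjusted p = 0.0715) and 0.51 against papilloma (adjusted p = 0.0682). Of 25 alternatives, 4 brought the first past the threshold and 5 the second. In carcinoma against papilloma 2 of the 9 genes were higher and 1 lower (33.3%, beside 11.4% of all genes). The called genes were Cebpa (0.52, limma adjusted p = 0.0288), Irf8 (0.31, adjusted p = 0.0348) and Csf2ra (-0.49, adjusted p = 0.0132). These calls were lost in 11, 11 and 2 of 25 alternatives. Leaving out any one of carcinomas 1, 2 and 4 or papillomas 1, 2 and 3 ended the Irf8 call. Taking the mean of the gene's probe sets also ended it. Over the settings that lost this call the difference was as low as 0.03 (limma adjusted p up to 0.863).

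Trem2, a lipid-sensing receptor of macrophages and microglia, was highest in carcinomas 4 and 2. It measured 8.39, 9.02, 8.56, 9.86 and 8.30 in the carcinomas, 8.41, 8.47, 8.53, 8.53 and 8.32 in the papillomas, and 8.73, 8.72, 8.36, 8.42 and 8.66 in normal tissue. Carcinomas 4 and 2 stood above all other arrays, and the remaining carcinomas lay within the range of the other groups or just below it. The difference was 0.25 in carcinoma against normal tissue (95% interval -0.23 to 0.72, limma adjusted p = 0.434), -0.13 in papilloma against normal tissue (adjusted p = 0.732) and 0.37 in carcinoma against papilloma (95% interval -0.10 to 0.84, adjusted p = 0.333). Tyrobp, which encodes the signalling adaptor of Trem2 and was named for that role, measured 7.78, 8.50, 8.19, 8.95 and 7.73 in the carcinomas. Its highest arrays were again carcinomas 4 and 2, and carcinoma minus normal was -0.04 (adjusted p = 0.902).

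The complement C1q genes C1qa and C1qb encode A and B chains of the recognition molecule of the classical pathway and lie close together on chromosome 4. They followed Trem2 across the carcinomas. The papillomas shared no such order, and papilloma 1 was the highest of them for C1qa and the lowest for C1qb. C1qb measured 10.04, 10.77, 10.22, 11.38 and 9.23 in the carcinomas, 9.91, 10.02, 10.003, 9.97 and 9.93 in the papillomas, and 10.12, 10.16, 9.90, 9.81 and 9.90 in normal tissue. The papillomas lay within 0.11 of each other, whereas the carcinomas spanned 2.16, with carcinoma 4 highest and carcinoma 5 lowest of all 15 arrays. Carcinoma differed from normal tissue by 0.35 (95% interval -0.23 to 0.92, limma adjusted p = 0.354), papilloma from normal tissue by -0.01 (adjusted p = 0.983) and carcinoma from papilloma by 0.36 (adjusted p = 0.458). Without carcinoma 5 the carcinoma difference was 0.62 and passed the threshold (adjusted p = 0.0232, range 0.0232 to 0.792 over 25 alternatives).

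C1qa measured 8.46, 9.18, 8.69, 9.57 and 8.32 in the carcinomas, 8.67, 8.54, 8.60, 8.51 and 8.35 in the papillomas, and 8.88, 8.70, 8.49, 8.45 and 8.58 in normal tissue. Carcinomas 4 and 2 were again above all other arrays. Carcinoma minus normal was 0.23 (95% interval -0.18 to 0.63, adjusted p = 0.396), papilloma minus normal -0.09 (adjusted p = 0.787) and carcinoma minus papilloma 0.31 (adjusted p = 0.343). C1qc, the gene of the C chain, which was named for its role, measured 7.53, 8.18, 7.77, 8.74 and 7.27 in the carcinomas and had a carcinoma minus normal difference of 0.34 (adjusted p = 0.251). The order of the carcinomas was 4, 2, 3, 1, 5 for Trem2, C1qa and C1qb alike.

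Aif1, which encodes the actin-binding protein IBA1 used to stain macrophages and microglia, was dim. It lay below the median of all probe sets in 4 of 5 carcinomas and in all papilloma and normal arrays. It measured 6.52, 6.67, 6.51, 7.25 and 6.48 in the carcinomas, 6.53, 6.66, 6.67, 6.75 and 6.50 in the papillomas, and 6.80, 6.81, 6.74, 6.65 and 6.66 in normal tissue. Carcinoma 4 stood apart from the other 14 arrays. The difference was -0.05 in carcinoma (95% interval -0.31 to 0.21, limma adjusted p = 0.811) and -0.11 in papilloma against normal tissue (adjusted p = 0.569), and 0.06 between carcinoma and papilloma (adjusted p = 0.814). Without carcinoma 4 the carcinoma difference was -0.19 and was called (adjusted p = 0.0493, range 0.0493 to 0.990 over 24 alternatives).

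Mrc1, Cd163 and Lyve1, surface receptors of macrophages at the borders of the brain, averaged lower in both tumour types than in normal tissue. Of these differences only that of Lyve1 in papilloma passed the threshold. The wider list of 12 border-associated macrophage genes, described below, did not average lower. Its mean was 7.35 in carcinoma, 7.29 in papilloma and 7.17 in normal tissue. Lyve1 lay below the median of all probe sets in 4 carcinomas, 5 papillomas and 2 normal arrays, and Mrc1 in 4 carcinomas, 4 papillomas and 1 normal array. Lyve1, a hyaluronan receptor that lymphatic endothelium also makes, measured 6.48, 6.97, 6.49, 6.65 and 6.78 in the carcinomas, 6.70, 6.44, 6.51, 6.55 and 6.69 in the papillomas, and 7.06, 6.84, 6.79, 6.89 and 7.09 in normal tissue. All papillomas were below all normal arrays, and carcinoma 2 lay inside the normal range. It fell by 0.36 in papilloma (SE 0.10, 95% interval -0.57 to -0.14, 1.28-fold, limma adjusted p = 0.0114). In carcinoma the difference was -0.26 (95% interval -0.47 to -0.04, adjusted p = 0.0552), which passed the threshold with array weights and without carcinoma 2, carcinoma 5 or normal array 3 (adjusted p 0.0105 to 0.139 over 24 alternatives). Carcinoma minus papilloma was 0.10 (adjusted p = 0.610).

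Of the lymphatic endothelial genes, 1 of 4 measured rose and 1 fell in each tumour type against normal tissue. That is 50.0%, beside 37.9% of all genes in carcinoma and 33.2% in papilloma. The mean level of the 4 was 6.74 to 6.95 in carcinomas, 6.73 to 7.01 in papillomas and 7.02 to 7.09 in normal tissue. The meningeal list also averaged lower in tumours. It was at 7.98 to 8.51 in carcinomas and 7.67 to 8.08 in papillomas, against 8.67 to 9.15 in normal tissue. Of its 8 genes, 5 were lower and 2 higher in carcinoma (87.5%, beside 37.9% of all genes). For papilloma 6 were lower and 0 higher (75.0%, beside 33.2%). The part of either tissue in the Lyve1 difference was not tested.

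Mrc1, the macrophage mannose receptor, measured 6.75, 7.55, 6.68, 6.81 and 6.73 in the carcinomas, 6.40, 6.77, 6.86, 6.79 and 6.77 in the papillomas, and 7.25, 6.79, 7.04, 7.28 and 7.05 in normal tissue. Carcinoma 2 was the highest of all arrays and papilloma 1 the lowest. The difference was -0.37 in papilloma against normal tissue (95% interval -0.69 to -0.04, limma adjusted p = 0.0835), -0.18 in carcinoma (adjusted p = 0.407) and 0.19 between carcinoma and papilloma (adjusted p = 0.508). Without carcinoma 2, whose array also enters the shared spread, both differences from normal tissue passed the threshold, at -0.34 for carcinoma (adjusted p = 0.0219, range 0.0219 to 0.615) and -0.37 for papilloma (adjusted p = 0.0206, range 0.0111 to 0.200).

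Cd163, the haemoglobin scavenger receptor, was below the median of all probe sets in every array. It measured 6.04, 6.12, 5.99, 5.92 and 6.25 in the carcinomas, 5.91, 5.97, 6.26, 6.04 and 5.90 in the papillomas, and 6.12, 6.09, 6.35, 6.16 and 6.37 in normal tissue. The groups overlapped throughout. The difference was -0.16 in carcinoma (adjusted p = 0.191) and -0.21 in papilloma against normal tissue (95% interval -0.40 to -0.01, adjusted p = 0.0959), and 0.05 between carcinoma and papilloma (adjusted p = 0.805). Without papilloma 3 the papilloma difference was -0.27 and was called (adjusted p = 0.0293, range 0.0293 to 0.328 over 24 alternatives).

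For 8 of the 9 markers, all but Cd163, the SD of the log2 values was largest in the carcinomas. The mean of the 9 log2 values was 7.83, 8.47, 7.84, 8.57 and 7.83 in carcinomas 1 to 5, 7.73 to 7.85 in papillomas and 7.85 to 8.05 in normal tissue. Carcinomas 2 and 4 were above every other array. Carcinomas 1, 3 and 5 were below every normal array and within the range of the papillomas. Carcinoma 4, the highest for Csf1r, Aif1, Trem2, C1qa and C1qb, was the lowest carcinoma for Gpnmb. Carcinoma 5, the highest for Gpnmb, was the lowest of all arrays for Csf1r and C1qb, yet it had the second highest Cd68 value. Cd68 therefore ordered the carcinomas as 2, 5, 4, 1, 3, and Gpnmb as 5, 2, 1, 3, 4. Cd163, which was dim and spanned only 0.33 in the carcinomas, ordered them as Gpnmb did.

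**Figure D3:**
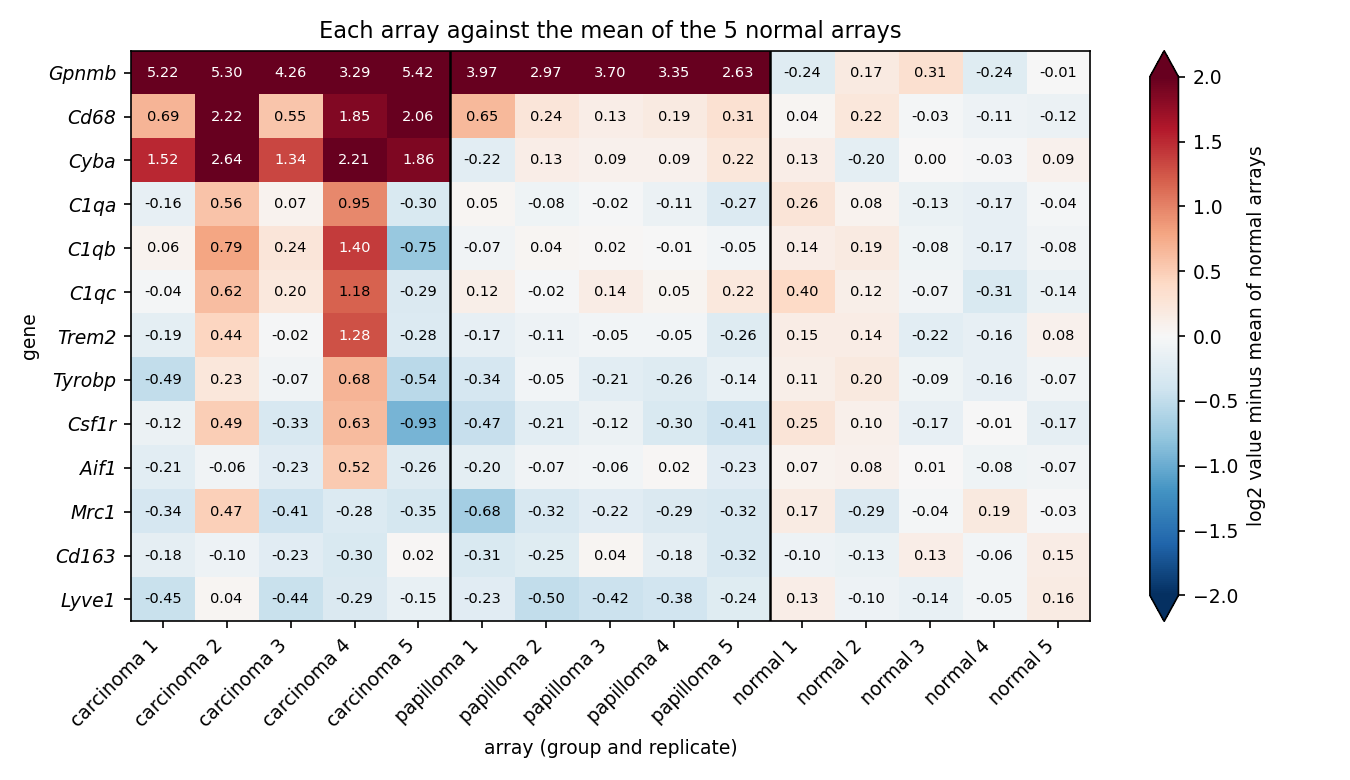
Each array's log2 value minus the mean of the 5 normal arrays for the 10 members and for Cyba, C1qc and Tyrobp, with genes down the page and arrays across it as carcinoma, papilloma and normal. Red is above and blue below the normal mean, and the colour scale ends at 2 in either direction. The Gpnmb row runs past the colour scale in every tumour, while the rows from C1qa to Aif1 are clearly red in carcinomas 2 and 4 or in carcinoma 4 alone.

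Likeness between genes was measured as the root mean square (RMS) difference between their log2 profiles over the 15 arrays, after each gene was centred on its own mean. Among the members, Cd68 came nearest to Gpnmb, at 1.61, whereas Trem2 and C1qa differed by 0.12, C1qb and Trem2 by 0.19, and Cd163 and Lyve1 by 0.19. The SD over the 15 arrays was 0.39 for Trem2 and 0.33 for C1qa, but 0.16 for Cd163 and 0.21 for Lyve1. Genes that vary little can be near each other by this measure without varying together. Over all genes, those nearest to Gpnmb were Cks2 (0.594), Esco2 (0.643), Dtl (0.653), Ccnb2 (0.677) and Pbk (0.738). Cks2 is a subunit of cyclin-dependent kinases, Esco2 a cohesin acetyltransferase, Dtl a substrate receptor for replication control, Ccnb2 a mitotic cyclin and Pbk a mitotic kinase. Their carcinoma minus normal differences were 4.04, 4.80, 4.28, 4.53 and 4.12. Genes nearest to the mean of the 9 markers were Capg (0.107), Dkkl1 (0.121), Itgam (0.125), Fcgr2b (0.126) and Tyro3 (0.126), of which Itgam and Fcgr2b were also listed as macrophage genes. Arrays of a group share their condition, so a small difference here is a description of these 15 arrays.

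Of 23 measured genes made by macrophages of most tissues, 2 rose and 1 fell in carcinoma against normal tissue, which is 13%, beside 37.9% of all genes, with a median of 0.13 (all genes -0.02). In papilloma 0 rose and 1 fell, which is 4.35%, beside 33.2% of all genes, with a median of 0.00 (all genes 0.01). The mean level of the 23 was 7.48, 8.05, 7.52, 8.45 and 7.37 in carcinomas 1 to 5, 7.44 to 7.55 in papillomas and 7.48 to 7.71 in normal tissue, so carcinomas 2 and 4 were again the highest. Cyba, the membrane subunit of the phagocyte NADPH oxidase, which other cells also make, measured 10.36, 11.48, 10.18, 11.06 and 10.70 in the carcinomas, 8.63, 8.97, 8.93, 8.93 and 9.06 in the papillomas, and 8.98, 8.65, 8.84, 8.81 and 8.93 in normal tissue. All 5 carcinomas were above all other arrays, and the rise was 1.91 against normal tissue (3.77-fold, adjusted p = 7.2e-07) and 1.85 against papilloma (adjusted p = 2.79e-05). Mertk, a receptor for the uptake of dying cells, rose by 0.84 in carcinoma (adjusted p = 0.00362). Lyz2, the macrophage lysozyme, fell by 1.03 in papilloma (adjusted p = 0.00859) and by 0.75 in carcinoma (adjusted p = 0.0451), the second of which 14 of 25 alternatives lost (adjusted p up to 0.125).

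Of 11 measured homeostatic microglia genes, 0 rose and 3 fell in carcinoma against normal tissue (27.3%, beside 37.9% of all genes; median -0.09, all genes -0.02). In papilloma 0 rose and 4 fell (36.4%, beside 33.2% of all genes; median -0.22, all genes 0.01). The list mean was 6.84 to 7.61 in carcinomas and 7.08 to 7.20 in papillomas, against 7.28 to 7.39 in normal tissue, and carcinomas 2 and 4 were above every normal array. Tmem119, a microglial surface protein, fell by 0.35 in carcinoma (adjusted p = 0.00416) and by 0.41 in papilloma (adjusted p = 0.00155). Olfml3, a secreted protein of microglia, fell by 0.52 in carcinoma (adjusted p = 0.00748) and by 0.71 in papilloma (adjusted p = 0.000895). Sall1, a microglial transcription factor, fell by 0.31 in carcinoma (adjusted p = 0.0148), but not once each autosome's shift was removed (-0.20, adjusted p = 0.134). The neuron list, a sign of adjoining brain, averaged 7.45 to 8.01 in carcinomas and 7.57 to 9.82 in papillomas, against 8.57 to 9.05 in normal tissue, and its part in the microglial values was not tested.

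Border-associated macrophage genes had 12 members measured, of which 2 rose and 0 fell in each tumour type (16.7%, beside 37.9% of all genes in carcinoma and 33.2% in papilloma). Both comparisons gave Cbr2, a carbonyl reductase, and Stab1, a scavenger receptor. Cbr2 was at 8.93 to 11.53 in carcinomas, 8.01 to 9.87 in papillomas and 7.28 to 7.87 in normal tissue. The rise was 2.55 in carcinoma (5.85-fold, adjusted p = 0.000268) and 1.49 in papilloma (2.82-fold, adjusted p = 0.0172), the second not passing without papilloma 3 (adjusted p = 0.0505). Stab1 rose by 0.55 in carcinoma (adjusted p = 0.000151) and by 0.25 in papilloma (adjusted p = 0.0464), the second lost in 13 of 25 alternatives (adjusted p up to 0.105). The medians of the list were -0.01 in carcinoma and 0.08 in papilloma. Its mean level was 7.19 to 7.62 in carcinomas, 7.18 to 7.42 in papillomas and 7.10 to 7.27 in normal tissue.

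Lipid- and disease-associated macrophage genes, the group to which Gpnmb is often assigned, moved in both directions. Their mean level was 9.44 to 9.68 in carcinomas, 9.40 to 9.46 in papillomas and 9.32 to 9.47 in normal tissue. The part of cells other than macrophages in these bulk values was not tested. Of 17 measured, 5 rose and 4 fell in carcinoma (52.9%, beside 37.9% of all genes; median 0.09) and 3 rose and 8 fell in papilloma against normal tissue (64.7%, beside 33.2%; median 0.03). Lpl, lipoprotein lipase, was at 7.18 to 11.16 in carcinomas, 11.05 to 11.32 in papillomas and 7.53 to 8.51 in normal tissue. It rose by 3.23 in papilloma (9.40-fold, adjusted p = 0.000161) and by 1.46 in carcinoma (adjusted p = 0.0406), the second lost in 9 of 25 alternatives (adjusted p up to 0.110). Axl, a receptor tyrosine kinase for the uptake of dying cells, fell by 1.35 in papilloma (adjusted p = 1.19e-05) and was higher by 1.30 in carcinoma than in papilloma (adjusted p = 0.000197). Lilrb4a, an inhibitory myeloid receptor, rose by 1.03 in carcinoma (adjusted p = 0.00978), and Fabp5, a fatty acid binding protein, by 0.56 (adjusted p = 0.0014). Cd9, a tetraspanin, fell by 0.45 in carcinoma (adjusted p = 0.000134), and in papilloma Ccl6, a chemokine, fell by 0.75 (adjusted p = 0.00121) and Clec7a, the beta-glucan receptor, by 0.54 (adjusted p = 0.0128).

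Complement genes beyond the C1q chains had 11 members measured, C1qc included, of which 3 rose and 2 fell in carcinoma (45.5%, beside 37.9% of all genes; median 0.31) and 1 rose and 2 fell in papilloma against normal tissue (27.3%, beside 33.2%; median -0.08). Cd93, a C1q-related receptor of endothelial and myeloid cells, rose by 2.08 in carcinoma (4.21-fold, adjusted p = 2.07e-08) and by 1.50 in papilloma (adjusted p = 8.13e-07). C4b, a component of the classical pathway, was at 8.01 to 11.38 in carcinomas, 6.99 to 7.79 in papillomas and 7.54 to 8.34 in normal tissue. It rose by 1.62 in carcinoma against normal tissue (adjusted p = 0.0101) and by 2.12 against papilloma (adjusted p = 0.00698). C5ar1, the receptor for C5a, rose by 0.35 in carcinoma (adjusted p = 0.0138). Serping1, the inhibitor of C1, fell by 1.81 in carcinoma (adjusted p = 7.83e-07) and by 2.32 in papilloma (adjusted p = 6.28e-08), and C2 fell by 0.95 in papilloma (adjusted p = 1.75e-05).

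Of 10 blood endothelial genes, 5 rose and 0 fell in carcinoma against normal tissue (50.0%, beside 37.9% of all genes; median 0.41, all genes -0.02). In papilloma 5 rose and 1 fell (60.0%, beside 33.2% of all genes; median 0.20, all genes 0.01). Plvap, a protein of fenestrated capillaries, rose by 1.24 in carcinoma (adjusted p = 2.27e-06) and by 0.90 in papilloma (adjusted p = 7.58e-05). The list mean was 8.81 to 9.33 in carcinomas and 8.66 to 9.01 in papillomas, against 8.34 to 8.83 in normal tissue. Fibroblasts also make Serping1, and fibroblast and pericyte genes averaged 8.70 to 9.14 in carcinomas and 8.26 to 8.76 in papillomas, against 9.68 to 9.82 in normal tissue. The part of either cell type in the complement values was not tested.

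Together the 5 macrophage lists, with the complement list counted among them, held 74 measured genes. Of these, 12 rose and 10 fell in carcinoma against normal tissue (29.7%, beside 37.9% of all genes) with a median of 0.05. The complement list, some of whose genes other cells also make, gave 3 of those that rose and 2 of those that fell. In papilloma 6 rose and 15 fell (28.4%, beside 33.2%), with a median of -0.05. In carcinoma against papilloma 7 were higher and 1 lower (10.8%, beside 11.4%), with a median of 0.14 (all genes -0.03). Of the 74 differences 58 were above 0, as were 9793 of the 22180 genes. Msr1, a scavenger receptor, was higher by 0.69 in that comparison (adjusted p = 0.0395), Lilrb4a higher by 0.96 (adjusted p = 0.0434), Cd93 higher by 0.57 (adjusted p = 0.0196) and Lpl differed by -1.77 (adjusted p = 0.0424), and these calls were lost in 13, 16, 4 and 16 of 25 alternatives. The count of 8 was 3 without carcinoma 2, and 4 or 5 without any single normal or papilloma array. It was 6 to 9 without any of the other carcinomas. The mean of the 74 log2 values was 8.15 and 8.39 in carcinomas 2 and 4, and 7.79 to 7.85 in the other carcinomas. Papillomas lay at 7.74 to 7.85 and normal tissue at 7.80 to 7.94.

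**Figure D4:**
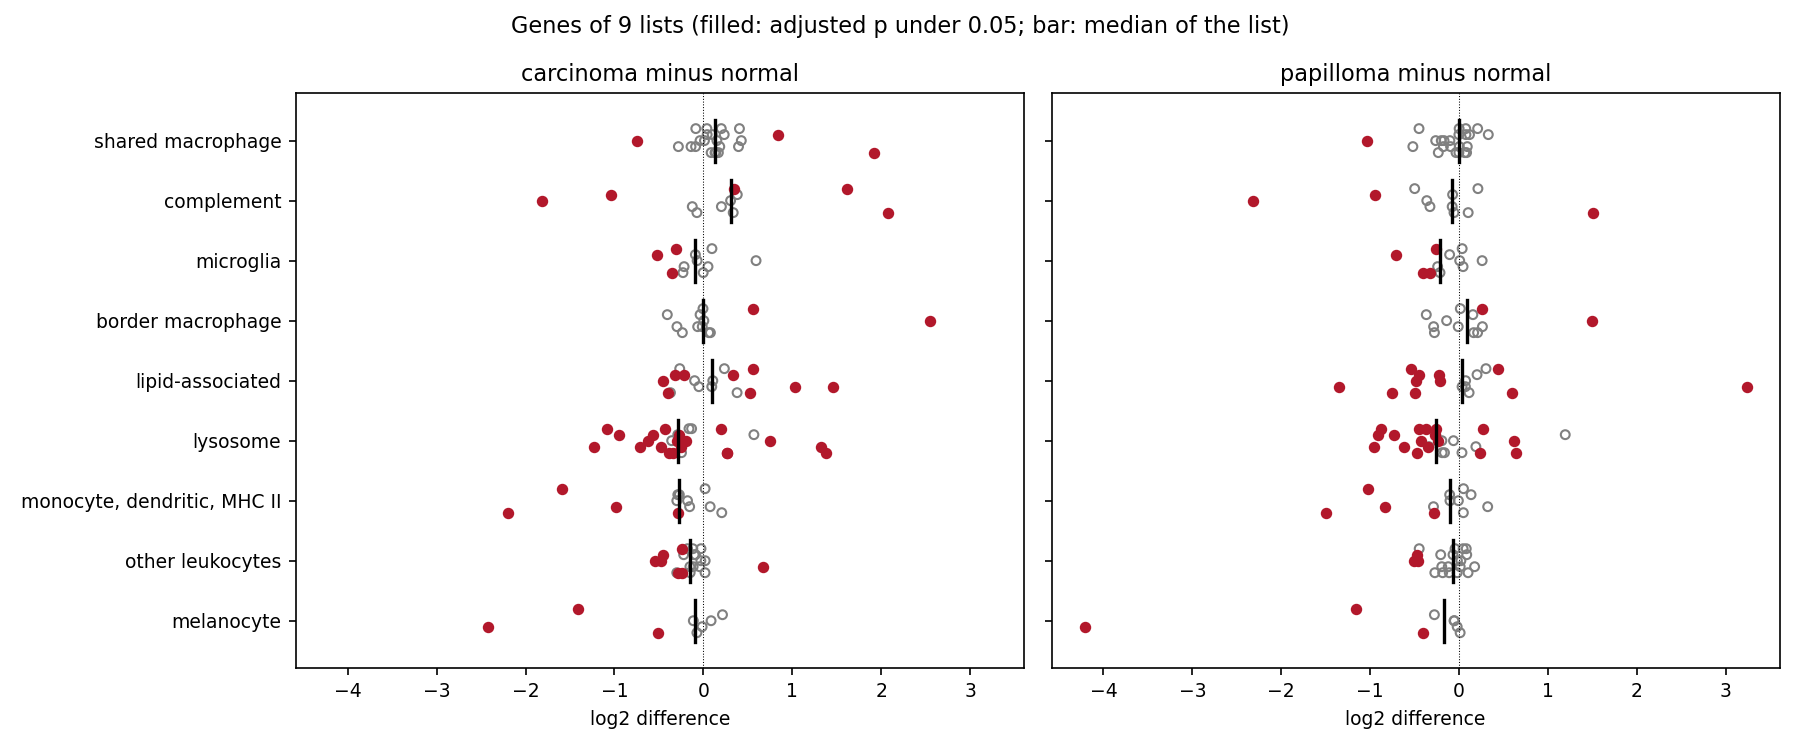
Log2 differences of the genes of 9 lists in carcinoma minus normal and papilloma minus normal. Each point is a gene, filled points passed an adjusted p under 0.05 and black bars are list medians. The medians lie between -0.28 and 0.31, and called genes lie on both sides of 0 in 5 of the 9 lists in carcinoma minus normal and in 3 in papilloma minus normal.

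Cd68 and Gpnmb proteins are found in lysosomes. Of 26 measured lysosomal genes, 6 rose and 14 fell in carcinoma against normal tissue (76.9%, beside 37.9% of all genes, of which 18.7% were higher and 19.2% lower; median -0.28, all genes -0.02). In papilloma 4 rose and 13 fell (65.4%, beside 33.2% of all genes; median -0.26, all genes 0.01). The balance of higher and lower genes in the list was not tested. Grn, which encodes progranulin, was among those that rose. It measured 11.85, 12.11, 11.59, 11.79 and 11.83 in the carcinomas, 11.20, 11.00, 11.09, 11.13 and 11.08 in the papillomas, and 10.51, 10.45, 10.51, 10.36 and 10.48 in normal tissue. The groups did not overlap, and the rise was 1.37 in carcinoma (2.59-fold, adjusted p = 3.69e-09), 0.64 in papilloma (adjusted p = 1.57e-05) and 0.73 in carcinoma against papilloma (adjusted p = 7.11e-05). Scarb2, a lysosomal membrane protein, fell by 1.23 in carcinoma (adjusted p = 1.6e-05) and by 0.96 in papilloma (adjusted p = 0.000208). Lipa, the lysosomal acid lipase, fell by 1.09 in carcinoma (adjusted p = 3.01e-06) and by 0.88 in papilloma (adjusted p = 3.41e-05), Npc2, a lysosomal cholesterol carrier, fell by 0.94 in carcinoma (adjusted p = 1.67e-07), and Acp5, an acid phosphatase, fell by 0.91 in papilloma (adjusted p = 0.000792). In carcinoma against papilloma 4 lysosomal genes were higher and 1 lower (19.2%, beside 11.4% of all genes). Among them Atp6v0d2, a proton pump subunit, was higher by 1.13 (limma adjusted p = 0.00118) and Hexa, a hexosaminidase, by 0.31 (adjusted p = 0.00986). Man2b1, a mannosidase, differed by -0.38 (adjusted p = 0.00626), a call lost once autosome shifts were removed (-0.25, adjusted p = 0.0937).

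The MiT/TFE factors, which act upstream of Gpnmb, did not pass the threshold themselves. Mitf measured 11.53 to 11.94 in carcinomas, 11.25 to 11.89 in papillomas and 11.76 to 11.90 in normal tissue, and carcinoma minus normal was -0.07 (95% interval -0.30 to 0.17, adjusted p = 0.689). Tfe3 differed by 0.26 in carcinoma (adjusted p = 0.0784; 0.34 and adjusted p = 0.0152 without carcinoma 3) and by 0.01 in papilloma (adjusted p = 0.954). Tfeb differed by -0.11 in carcinoma (adjusted p = 0.188) and Tfec by -0.16 (adjusted p = 0.309), all 4 factors being named for their role. Of the 7 genes in the list, 2 rose and 0 fell in carcinoma (28.6%, beside 37.9% of all genes). These were regulators of the factors, Fnip2 (0.48, limma adjusted p = 0.00529) and Flcn (0.26, adjusted p = 0.00973). In papilloma 0 of 7 passed, beside 33.2% of all genes. The smallest p-values there were those of Flcn (0.18, adjusted p = 0.0613) and Rragd (-0.18, adjusted p = 0.0889).

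Melanocyte genes share MiT/TFE control with Gpnmb in mouse and human melanocytes. Of 8 measured, 0 rose and 3 fell in carcinoma (37.5%, beside 37.9% of all genes; median -0.09) and in papilloma (37.5%, beside 33.2%; median -0.17) against normal tissue, shares near those of all genes. Oca2, a melanosomal transporter, measured 6.73 to 11.56 in carcinomas and 7.14 to 7.71 in papillomas, against 11.52 to 11.72 in normal tissue, so the carcinomas overlapped normal tissue. It fell by 2.42 in carcinoma (adjusted p = 0.017) and by 4.21 in papilloma (adjusted p = 0.000313), and Dct, a melanin synthesis enzyme, fell by 1.41 (adjusted p = 0.00232) and 1.16 (adjusted p = 0.0104) in carcinoma and papilloma. Pmel, the melanosome matrix protein to which Gpnmb is related, fell by 0.51 in carcinoma (adjusted p = 0.000198) and by 0.41 in papilloma (adjusted p = 0.00164). The list mean was 6.59 to 7.28 in carcinomas and 6.67 to 6.88 in papillomas, against 7.41 to 7.67 in normal tissue.

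Reported binding partners of Gpnmb protein and its sheddase had 7 members measured. Against normal tissue 2 rose and 1 fell in carcinoma (42.9%, beside 37.9% of all genes). For papilloma 1 rose and 0 fell (14.3%, beside 33.2% of all genes). Adam10, the protease that releases the Gpnmb ectodomain, rose by 0.46 in carcinoma (adjusted p = 0.00123) and by 0.32 in papilloma (adjusted p = 0.0191). Cd44, a hyaluronan receptor, rose by 0.31 in carcinoma (adjusted p = 0.00332) and was higher by 0.32 than in papilloma (adjusted p = 0.0123). Itgav, the integrin alpha-v chain, fell by 0.64 in carcinoma (adjusted p = 0.000276) and was lower than in papilloma, by -0.58 (adjusted p = 0.00372). Itga5, another integrin chain, was higher by 0.62 in carcinoma than in papilloma (adjusted p = 0.03), a call that 10 of 25 alternatives lost (adjusted p up to 0.0862).

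Of 12 monocyte, dendritic cell and MHC class II genes, 0 rose and 4 fell in each tumour type against normal tissue (33.3%, beside 37.9% of all genes in carcinoma and 33.2% in papilloma), with list means of 6.82 to 7.22 in carcinomas, 7.09 to 7.39 in papillomas and 7.38 to 7.65 in normal tissue. The MHC class II genes H2-Ab1 and H2-Aa, which present antigen on dendritic cells and macrophages, fell by 2.20 (adjusted p = 4.46e-07) and 1.59 (adjusted p = 8.16e-05) in carcinoma and by 1.50 (adjusted p = 3.17e-05) and 1.03 (adjusted p = 0.00412) in papilloma. Of 21 T, B, NK, neutrophil and mast cell genes, 1 rose and 6 fell in carcinoma (33.3%, beside 37.9%), and 0 rose and 3 fell in papilloma (14.3%, beside 33.2%). Their mean level was 5.77 to 5.89 in carcinomas, 5.77 to 5.89 in papillomas and 5.87 to 6.04 in normal tissue, below the median of all probe sets. The gene that rose was Cd79a, a B cell receptor subunit (0.67, adjusted p = 0.00291).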

How the data were processed

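The deposited values are log2 RMA summaries per probe set, made by the authors with Affymetrix Expression Console per the submitters' processing notes, which name no version. RMA corrects background and gives all arrays 1 intensity distribution, which compresses differences of dim genes and hides a change in the total RNA of a cell. The genome build was not given in these sources, there is no read depth to report, and precision is set by the 5 arrays a group. Of 41345 probe sets, 23521 had exactly 1 gene symbol in the platform annotation and 23328 of these matched the RefSeq gene table (GRCm38.p6) by Entrez identifier. The probe set with the highest mean stood for each of 22180 genes.

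A linear model with the 3 groups was fitted to all 15 arrays with limma 3.58.1 in R 4.3.3 (12 residual and 3.35 prior degrees of freedom). The two-sided p-values were adjusted by Benjamini-Hochberg over all 22180 genes, with a threshold of 0.05, and the procedure was tested on simulated data. No p was adjusted over a list alone. The members, the 19 gene lists (216 of 236 entries measured) and the motifs were chosen with earlier results of these data known. The rule for named genes took all members and, of each list described, up to 3 called genes, those that moved most in the list's main direction, 1 that moved the opposite way, or the 2 smallest p-values where none was called. It also took the 5 genes nearest in profile. Genes named for their role (Csf1, Il34, Tyrobp, C1qc and the MiT/TFE factors) stand outside it.

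Same-numbered arrays did not deviate together (correlations of deviations -0.10 to 0.14 over 15 pairs, against -0.15 to 0.17 over 60 other pairs), so the numbers were not used as a block. Each result was recomputed under 25 alternatives: 10 settings and 15 fits that each left out 1 array.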

Additional observations from a re-analysis of the deposited data

Results flagged for a closer look

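Over the members and named genes, 228 groups of 5 arrays were examined for a highest or lowest array whose gap to its neighbour, divided by the range of the group, exceeded Dixon's 95% critical value of 0.71. This marked 11 arrays in single genes, and chance marks about 1 in 20 groups.

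Among the members, Aif1 was at 7.25 in carcinoma 4, against 6.48 to 6.67 in the other carcinomas. Mrc1 was at 7.55 in carcinoma 2, against 6.68 to 6.81 in the other carcinomas. It was at 6.40 in papilloma 1, against 6.77 to 6.86 in the other papillomas.

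Among the other named genes, Il34 was high in carcinoma 4 (8.04, others 7.61 to 7.72) and Pecam1, an adhesion molecule of endothelium, was high in carcinoma 1 (9.77, others 9.41 to 9.50). In the papillomas, Cldn5, an endothelial tight junction gene, was high in array 2 (7.69, others 6.89 to 7.11). Cpa3, a mast cell protease, was low in papilloma 1 (4.47, others 4.81 to 4.91), where Tfeb was high (7.25, others 7.11 to 7.14). In normal tissue, Csf2ra was low in array 2 (8.89, others 9.02 to 9.07). In normal array 5, Rragd was high (11.81, others 11.58 to 11.63) and Tfe3 was low (9.75, others 9.92 to 9.99).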

How the results depend on the processing

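Gpnmb exceeded normal tissue by 4.52 to 5.05 in carcinoma and 3.16 to 3.50 in papilloma whichever array was left out, and carcinoma exceeded papilloma by 1.19 to 1.72. Of 666 recomputed values of the 9 markers, 653 kept their side of the threshold, 1 lost its call, 12 gained one and 0 called differences changed sign. Of 2908 values of the named list genes, 161 lost a call, 19 gained one and 0 reversed.

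In carcinoma against normal tissue 1 marker was called, 2 with array weights (beside 9184 of all genes) and 1 to 3 with an array left out. In papilloma against normal tissue 1 was called, and 1 to 2 with an array left out. It was 0 once dim genes were left out (6 markers kept, Lyve1 not among them), beside 7132 of 14283 genes. It was 4 in a fit on only the groups compared, beside 8578 of all genes. In carcinoma against papilloma 1 was called, 0 in a fit on only the groups compared, and 1 with any array left out. For all genes in that comparison the count was 2530, 1329 in a fit on only the groups compared (789 higher, 540 lower) and 1882 to 3038 with an array left out. For the 74 listed macrophage genes it was 8, 4 with all probe sets, 4 in a fit on only the groups compared, and 3 to 9 with an array left out. In the comparisons with normal tissue, leaving out an array gave 18 to 25 listed genes for carcinoma and 17 to 23 for papilloma, and 7703 to 8745 and 6703 to 7829 of all genes. A fit on only the groups compared gave 21 listed genes for carcinoma, beside 8144 of all genes. For papilloma it gave 31 of the 74 listed genes (9 higher, 22 lower), beside 8578 of the 22180 genes. The causes were not tested.

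With the replicate number as a block, 1 marker was called in each comparison, 21, 19 and 6 listed macrophage genes, and 8220, 7180 and 2268 of all genes, for carcinoma against normal, papilloma against normal and carcinoma against papilloma.

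Dim probe sets bound the reading of Aif1, Cd163, Mrc1 and Lyve1, which lay near or below the median of all probe sets in most arrays, and 5 arrays a group limit each interval.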

Other observations

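Beyond the myeloid lists, 8 choroid plexus epithelial genes were measured. Against normal tissue 0 were higher and 3 lower in carcinoma (37.5%, near the 37.9% of all genes). For papilloma 0 were higher and 4 lower (50.0%, beside 33.2% of all genes). The mean level of the 8 was 12.64 to 12.86 in carcinomas and 12.68 to 12.96 in papillomas, against 13.14 to 13.22 in normal tissue. Fibroblast and pericyte genes (7 measured) had 1 higher and 3 lower in carcinoma (57.1%), and 1 higher and 5 lower in papilloma (85.7%). Anterior pituitary genes (6 measured) had 0 higher and 5 lower in each tumour type (83.3%). Their means were 6.09 to 6.28 in carcinomas and 6.00 to 6.74 in papillomas, against 7.63 to 8.48 in normal tissue. The part of this adjoining tissue in the levels of the normal arrays was not tested.

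Foxc2, a transcription factor of lymphatic and meningeal development, fell by 1.53 in carcinoma (limma adjusted p = 3.31e-10) and by 1.50 in papilloma (adjusted p = 4.03e-10). Flt4, the receptor for VEGF-C on lymphatic endothelium, rose by 0.51 in carcinoma (adjusted p = 0.000155) and by 0.45 in papilloma (adjusted p = 0.000511). Retnlg, S100a8 and Cpa3, genes of neutrophils and mast cells, were at mean levels of 4.70, 4.87 and 4.81 in carcinoma, against 5.18, 5.41 and 5.27 in normal tissue, far below the median of all probe sets.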
